A study of Mus musculus with 31 samples.

Results

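Exon exclusion in the cortex was compared between mice carrying 2 mutant huntingtin alleles and mice carrying 1, to ask what a second mutant allele adds. The comparison held 7 of the 31 mice of the series, chosen by their labelled genotype: 3 Q175 homozygotes (HOMO, 175 glutamines encoded by each allele) and 4 Q175 heterozygotes (HET, 175 glutamines on 1 allele and 7 on the other), all 18 months old by the study's methods. The 5 wild-type mice (WT, 7 glutamines on each allele) whose files list the same events lent their spread to the test and mark the level with no mutant allele. Q175 mice carry the expanded repeat in their own huntingtin gene, so the mutant protein is made under the gene's own promoter in every cell that uses it, and no mouse of these groups was treated. By the methods the allele is on the B6J.129S1 background, sexes are not given in the labels, and the titles of these mice name the Q150 line where their genotype entry gives the Q175 alleles used here. The methods also give the numbers of HOMO mice of the Q150 and Q175 lines the other way round from the labels. A legend in the study's supplement gives the numbers of the labels, and the labels were followed. RNA came from cortex, and splicing was read by RASL-seq, in which pairs of oligonucleotides anneal across known splice junctions, are ligated and are counted by sequencing. Reads of the junction that skips the exon give an event's short count and reads of the junction that retains it the long count. Exclusion is the percentage of an event's reads that are short. All 1839 events of 1508 gene symbols listed for these mice were compared, 1772 of them (96.4%) cassette exons.

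Huntington's disease is caused by an expanded CAG repeat in the huntingtin gene, and a single mutant allele is enough to cause it. A homozygous knock-in mouse makes mutant huntingtin from both copies of the gene and has no normal huntingtin, so the step from HET to HOMO adds a mutant allele and removes the normal one at the same time. Which exons a messenger RNA keeps is decided by RNA-binding proteins such as the hnRNP family, CELF proteins and TDP-43, a protein that binds UG-rich RNA. In neurons the choice sets which forms of glutamate receptors, scaffolds and motor proteins are made.

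Total counts per mouse ran from 3351064 to 4934478 in HET, from 3711567 to 5151008 in HOMO and from 4027337 to 5256516 in WT mice. No file repeated another, and mice of a group differed by more than counting noise, with a chi-square per degree of freedom of 4.91 to 8.91 among HET and 5.83 to 12.1 among WT mice. HOMO replicate 1 stood apart from the other HOMO mice (11.4 and 18.1, against 5.80 between HOMO replicates 2 and 3). The numbers of the mice fall into series that follow the genotype: the 4 HET mice are numbered 848 to 880 and the 3 HOMO mice 3857, 3880 and, for HOMO replicate 1, 8179. The labels do not say what the numbers stand for, and for HET replicate 1 the columns of its file carry a number next to the 848 of its title. WT mice alone lie in both, 3 under 1000 and 2 over it, at 3878 and 3903 and so near HOMO replicates 2 and 3 but not replicate 1, so genotype and number series cannot be told apart in the HOMO and HET mice themselves. For that reason the change of each event that passed is also given from a fit that removes the difference between the WT mice over and under 1000, called the series term below. Of the cell type markers, 3 oligodendrocyte genes were listed (Mag, Mbp and Mobp), with Pecam1 for endothelium and Syt1 for neurons, and no gene of the astrocyte or microglia lists. Summed CPM (event counts scaled to the total count of the mouse) of the oligodendrocyte events were 7830 to 9079 in HET, 6714 to 11418 in HOMO and 8835 to 11001 in WT mice, those of Pecam1 942 to 1145, 973 to 1177 and 1129 to 1348, and those of Syt1 26302 to 31756, 27748 to 32392 and 25154 to 32951. The ranges of the 3 groups overlapped in each, and no marker event passed between HOMO and HET mice. Fewer cells of a type and less RNA per cell cannot be told apart in bulk cortex.

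Of 1839 events, 15 (0.816%) differed between HOMO and HET mice at a Benjamini-Hochberg adjusted p under 0.05 (limma, fitted to log2 ratios of short to long counts). Exclusion was higher in HOMO mice in 14 of them (0.761% of all events) and lower in 1 (0.0544%). The 14 described here, all higher, were Hnrpdl, mKIAA1232, Klc1, Sars, Gripap1, Celf4, Grin1, Ybx1, Rnf112, Centg1, Gria3, Sytl2, Diap1 and Ahi1. The fit lets the variance follow the counts behind each ratio, and without that trend 1 event passed, Hnrpdl. In every one of the 14 the 3 HOMO mice lay beyond all 4 HET mice and beyond all 5 WT mice on the same side. Over all events, HOMO mice lay above every HET mouse in 132 (7.18%) and below every HET mouse in 56 (3.05%). They lay above every HET and every WT mouse in 60 (3.26%) and below them all in 23 (1.25%). Unadjusted p-values were under 0.05 in 200 events (10.9%), 56.5% of events had higher mean ratios in HOMO mice, and the median event moved by 0.035 on the log2 scale. With the series term 3 events passed (0.163%), Hnrpdl and Rnf112 among the 14 and Fn1 besides. All 14 events kept their direction under that term (56.6% of all events were higher in HOMO mice with it) and 13 of them had an unadjusted p under 0.05 (7.4% of all events), the exception being Gria3. The term changes only the WT part of the estimate and keeps the HOMO and HET mice by which the events were chosen, so these counts are a description. The standard error of the median event was 0.22 without the term and 0.34 with it. Between the WT mice over and under 1000 no event passed (96 of 1839 at an unadjusted p under 0.05, 5.22%, in limma).

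Exons were identified in the mouse genome GRCm38 by their gene and by the exact distance between the neighbouring exons, because the positions in the files belong to a build that the files do not state. Of the 14 events, 13 are cassette exons and each matched 1 annotated exon; Klc1 is an alternative 5′ splice site. Their median length was 72 bases, against 90 bases over the 1456 cassette events that matched 1 exon. A length that is a multiple of 3, which keeps the reading frame when the exon is left out, was found in 10 of 13 (65.8% of all matched exons), and 10 of 13 were wholly coding (75.8% of all). Exons of 27 bases or fewer were 2 of the 13, those of Gripap1 and Diap1, and 4.74% of all. The motif TGTGT, the DNA form of a UG-rich sequence of the kind bound by TDP-43, was searched in the 100 bases on each side of the exon, on the strand that reads as the transcript does. It was present on at least 1 side in 5 of 13 exons (41.4% of all 1456), in the 100 upstream bases in 1 of 13 (24.7%), in the 100 downstream bases in 4 of 13 (22.3%) and inside the exon in 1 of 13 (10.4%). Its complement ACACA lay in either flank in 2 of 13 (15.5%).

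The 7 wholly coding exons with the smallest p are shown, since these are stretches whose share of short reads was higher in HOMO mice. Each is written 5′ to 3′ along the transcript, the exon in capitals and 20 bases of intron on each side in lower case, from GRCm38. They lie at chr5:100036481-100036651 (Hnrpdl, minus strand, 171 bases), chrX:100771307-100771360 (mKIAA1232, now Dlg3, plus strand, 54 bases), chr3:108427861-108427932 (Sars, minus strand, 72 bases), chrX:7794260-7794286 (Gripap1, plus strand, 27 bases), chr2:25311343-25311405 (Grin1, minus strand, 63 bases), chr4:119282781-119282870 (Ybx1, minus strand, 90 bases) and chr11:61453428-61453496 (Rnf112, minus strand, 69 bases). Every one is coding and starts after an AG, and each can be left out without a shift of the reading frame.
Hnrpdl: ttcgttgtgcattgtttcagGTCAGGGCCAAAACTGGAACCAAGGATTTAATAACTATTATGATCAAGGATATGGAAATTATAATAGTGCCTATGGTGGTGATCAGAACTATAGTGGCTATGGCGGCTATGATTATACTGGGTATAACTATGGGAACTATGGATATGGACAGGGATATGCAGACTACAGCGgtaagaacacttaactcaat
mKIAA1232: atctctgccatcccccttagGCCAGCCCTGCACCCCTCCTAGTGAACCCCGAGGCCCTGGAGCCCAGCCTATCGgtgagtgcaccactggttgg
Sars: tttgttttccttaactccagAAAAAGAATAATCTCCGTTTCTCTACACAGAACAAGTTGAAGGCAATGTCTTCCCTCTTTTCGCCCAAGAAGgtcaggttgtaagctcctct
Gripap1: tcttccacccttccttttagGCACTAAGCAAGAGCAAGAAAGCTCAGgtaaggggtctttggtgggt
Grin1: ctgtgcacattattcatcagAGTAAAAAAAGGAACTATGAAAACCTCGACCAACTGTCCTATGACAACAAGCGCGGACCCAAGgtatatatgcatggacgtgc
Ybx1: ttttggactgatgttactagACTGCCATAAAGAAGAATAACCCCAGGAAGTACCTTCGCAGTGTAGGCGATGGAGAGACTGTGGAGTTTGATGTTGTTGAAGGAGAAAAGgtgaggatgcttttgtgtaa
Rnf112: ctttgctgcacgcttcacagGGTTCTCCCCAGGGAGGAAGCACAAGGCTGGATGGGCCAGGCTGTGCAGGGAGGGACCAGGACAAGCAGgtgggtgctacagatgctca

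The 14 events are described by the role of their genes, an order chosen after the calls were known, and counts over gene lists are given further on. Among RNA-binding proteins were Hnrpdl, Ybx1 and Celf4. Hnrpdl (now Hnrnpdl) encodes an hnRNP that binds AU-rich RNA and takes part in splicing. Its 171-base exon (chromosome 5, 100465214 to 100465880 in the files) was excluded in 2.51, 2.36, 2.68 and 2.45% of reads in the 4 HET mice and in 4.91, 5.02 and 4.66% in the 3 HOMO mice. WT mice had 1.47, 1.56 and 1.75% under 1000 and 1.38 and 1.22% over it, so the 3 genotypes formed a stair with no overlap, as in 7 rising (0.381%) and 2 falling (0.109%) of all events. The HOMO mean of 4.86% ± 0.184 (SD, n = 3) against 2.50% ± 0.134 (SD, n = 4) is a log2 change of 0.99 ± 0.13 (SE) in the short-to-long ratio, 1.99-fold (limma adjusted p of 3.06e-06). Between the WT series the event moved the other way, by -0.30, and with the series term the change was 1.29 ± 0.19 (limma adjusted p of 5.80e-05). A second Hnrpdl event, a 105-base exon outside the coding part for which most reads were short, averaged 89.3% (SD 1.31, n = 4) in HET and, in HOMO mice, 86.8% (SD 1.45, n = 3) and did not pass (log2 change -0.34 ± 0.12, limma adjusted p of 0.203).

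Ybx1 encodes the Y-box protein YB-1, which binds messenger RNA and regulates its splicing and translation. Its 90-base exon (chromosome 4, 118955053 to 118957713 in the files) was excluded in 10.8, 12.8, 12.8 and 15.1% of reads in HET mice and 20.5, 17.7 and 16.1% in HOMO mice. The WT mice lay below both groups, at 10.01, 9.42 and 9.94% under 1000 and 8.57 and 9.06% over it. The log2 change was 0.59 ± 0.12 (limma adjusted p of 0.00275) and 0.75 ± 0.18 with the series term (limma adjusted p of 0.0633). Without HOMO replicate 1 the call was lost (limma adjusted p of 0.0742). Celf4, which encodes a neuronal CELF protein that acts on splicing and translation, had an 85-base non-coding exon for which nearly all reads were short. Its exclusion was 94.96, 94.5, 94.5 and 95.1% in HET and 96.6, 96.0 and 96.5% in HOMO mice, with the 5 WT mice between 94.3 and 94.7%. Here HET mice overlapped with WT and HOMO mice stood alone (log2 change 0.55 ± 0.09, limma adjusted p of 0.000203). With the series term the change was 0.58 ± 0.15 (limma adjusted p of 0.0940). With 19435 to 33282 counts behind each mouse the Wilson interval was at most 0.615 points wide.

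**Figure D1:**
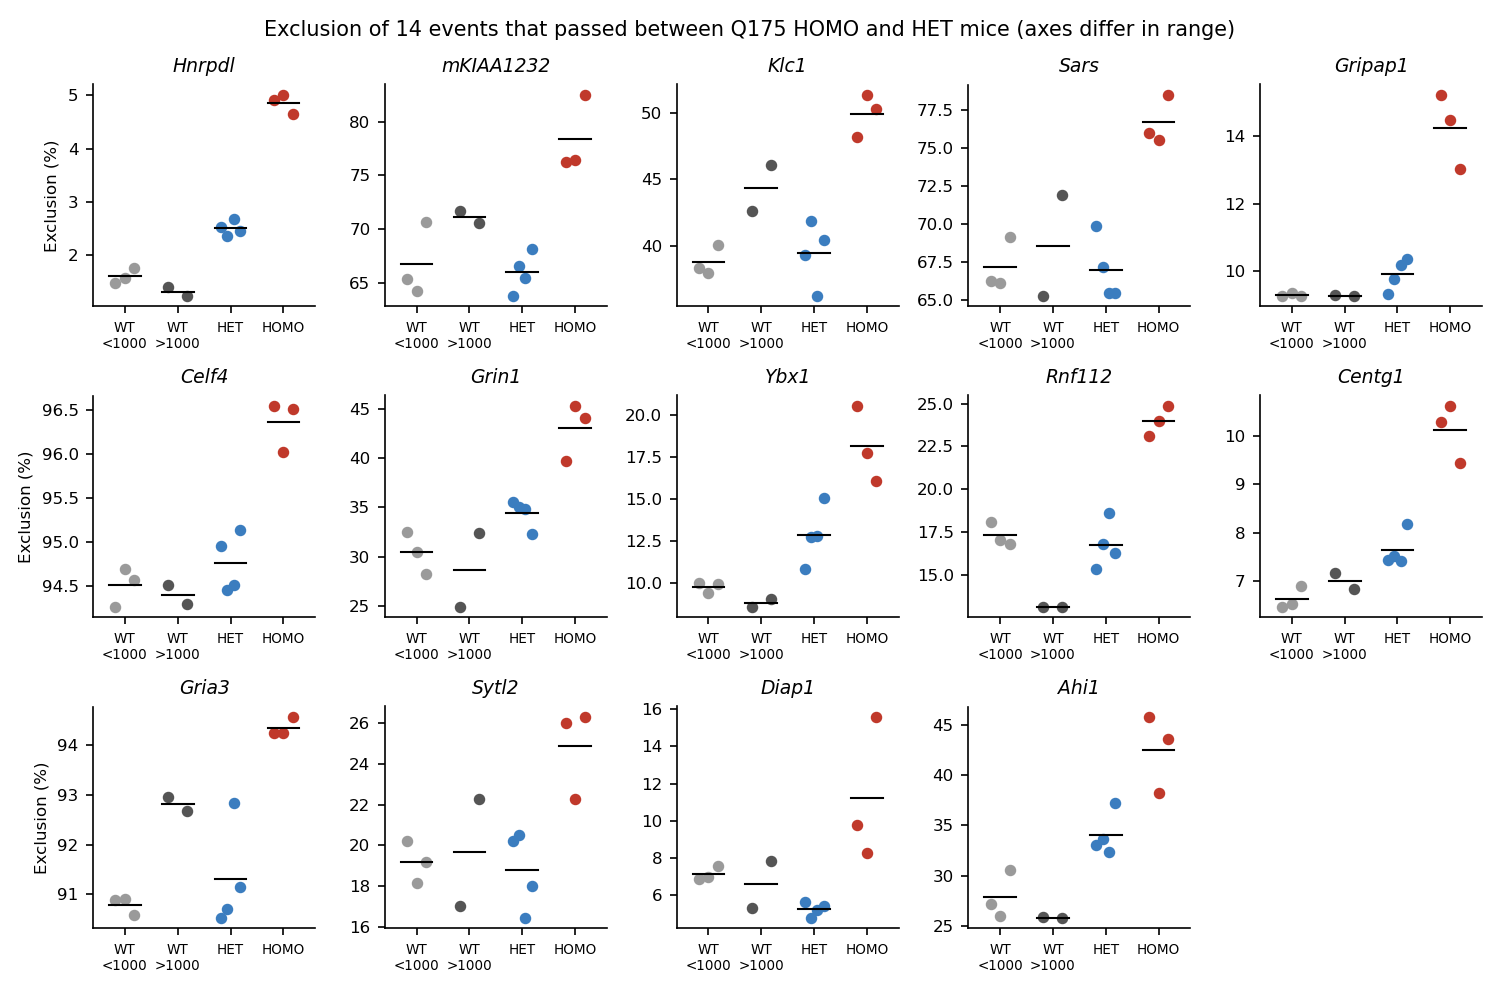
Exclusion (%, vertical axis) of 14 events that passed between HOMO and HET mice, 1 point per mouse and a line at the mean of each column, with WT mice split by their number (under and over 1000); the vertical axes differ in range and do not start at 0. In every panel the 3 HOMO points lie beyond the 4 HET and 5 WT points, and in Hnrpdl, Ybx1, Centg1 and Ahi1 all 4 HET points also lie between the WT and HOMO points.

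Grin1, Gria3, mKIAA1232, Gripap1 and Centg1 encode receptor subunits or proteins of receptor scaffolding, traffic or signalling. Grin1 encodes the subunit that every NMDA receptor contains, and the 63-base exon listed here (chromosome 2, 25165995 to 25168947 in the files) is its N1 cassette, which codes for a stretch of the extracellular domain and alters the receptor's gating. Exclusion was 35.5, 35.0, 34.8 and 32.3% in HET mice and 39.7, 45.3 and 44.1% in HOMO mice. In WT mice it was 32.5, 30.5 and 28.3% under 1000 and 24.9 and 32.4% over it, so that 3 of 4 HET mice lay above every WT mouse. The log2 change from HET to HOMO was 0.52 ± 0.10 (limma adjusted p of 0.00164) and 0.65 ± 0.16 with the series term (limma adjusted p of 0.0633). The other Grin1 event, a 111-base exon near the end of the gene, averaged 32.4% (SD 4.62, n = 4) in HET and, in HOMO mice, 34.5% (SD 4.504, n = 3; log2 change 0.14 ± 0.15, limma adjusted p of 0.795).

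Gria3 encodes an AMPA receptor subunit, whose flip and flop forms arise from a choice between neighbouring exons of 115 bases. Both events listed for Gria3 (chromosome X, 39008101 to 39025395 and 39007430 to 39022677 in the files) matched exons of that length. In the first, exclusion was 90.5, 90.7, 92.8 and 91.1% in HET mice and 94.2, 94.2 and 94.6% in HOMO mice. The WT mice differed by series, with 90.9, 90.9 and 90.6% under 1000 and 92.9 and 92.7% over it. Its log2 change of 0.66 ± 0.14 (limma adjusted p of 0.00783) was 0.27 ± 0.21 with the series term (limma adjusted p of 0.878), and it was lost without HOMO replicate 3 (limma adjusted p of 0.0724). The other event had a mean of 154 counts and a log2 change of -0.30 ± 0.36 (limma adjusted p of 0.838).

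mKIAA1232 is the file's name for Dlg3, the gene of SAP102, a scaffold that holds NMDA receptors at synapses. Its 54-base exon (chromosome X, 97963767 to 97966953 in the files) was excluded in 63.8, 66.5, 65.5 and 68.2% of reads in HET and 76.3, 76.5 and 82.5% in HOMO mice. WT mice had 65.3, 64.2 and 70.6% under 1000 and 71.7 and 70.5% over it, and HET mice overlapped with the former. A difference of 12.4 points between HOMO and HET means was the widest of the 14, and its log2 change of 0.92 ± 0.13 (limma adjusted p of 3.33e-05) was 0.62 ± 0.20 with the series term (limma adjusted p of 0.247).

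Gripap1 encodes GRASP-1, which guides the recycling of AMPA receptors. Exclusion of its 27-base exon (chromosome X, 7369463 to 7372117 in the files) was 9.33, 9.77, 10.2 and 10.4% in HET and 15.2, 14.5 and 13.0% in HOMO mice. All 5 WT mice lay within 9.26 to 9.36% whatever their number, and the change was the same with and without the series term (log2 0.59 ± 0.10, limma adjusted p of 0.000203, and 0.60 ± 0.16, limma adjusted p of 0.129). A 48-base exon of the same gene averaged 30.04% (SD 0.811, n = 4) in HET and, in HOMO mice, 32.5% (SD 3.47, n = 3; limma adjusted p of 0.780). Centg1 (now Agap2) encodes PIKE, a GTPase of neurons that links receptors to phosphoinositide 3-kinase. Its 60-base exon (chromosome 10, 126526414 to 126527482 in the files) was excluded in 7.44, 7.52, 7.41 and 8.18% of reads in HET and 10.3, 10.6 and 9.44% in HOMO mice, above WT mice at 6.46 to 7.16%. The log2 change, 0.44 ± 0.09 (limma adjusted p of 0.00275), was the smallest of the 14, and it was 0.36 ± 0.14 with the series term (limma adjusted p of 0.436).

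Klc1, Sytl2 and Diap1 act in transport, membrane traffic and the cytoskeleton. Klc1 encodes a light chain of kinesin, the motor that carries cargo along axons, and its event was a choice between 5′ splice sites (chromosome 12, 113027535 to 113031859 in the files). The short form made up 39.3, 41.8, 36.2 and 40.4% in HET and 48.1, 51.3 and 50.2% in HOMO mice. WT mice again differed by series, at 38.4, 38.0 and 40.1% under 1000 and 42.6 and 46.0% over it (log2 difference 0.33). The log2 change of 0.61 ± 0.09 (limma adjusted p of 6.98e-05) was 0.29 ± 0.13 with the series term (limma adjusted p of 0.617).

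Sytl2 encodes a synaptotagmin-like protein that tethers vesicles through Rab27. Its 120-base exon (chromosome 7, 97540963 to 97544983 in the files) was excluded in 20.2, 20.5, 16.4 and 17.999% of reads in HET, 26.0, 22.3 and 26.3% in HOMO and 17.0 to 22.3% in WT mice. HOMO replicate 2 and the highest WT mouse were equal to 3 digits, and the call (log2 0.52 ± 0.12, limma adjusted p of 0.0115) was lost without HET replicate 3 or 4 or HOMO replicate 1 or 3 (limma adjusted p up to 0.139). With the series term the change was 0.48 ± 0.18 (limma adjusted p of 0.389). The other Sytl2 exons did not pass. A 48-base exon averaged 23.1% (SD 3.08, n = 4) in HET and, in HOMO mice, 30.6% (SD 3.86, n = 3; log2 change 0.56, limma adjusted p of 0.259), and a 93-base exon 95.3% and 95.04%. Diap1 (now Diaph1) encodes a formin that elongates actin filaments. Exclusion of its 27-base exon was 5.66, 4.77, 5.19 and 5.43% in HET and 9.76, 8.28 and 15.6% in HOMO mice, with WT mice at 5.31 to 7.86%, overlapping with HET. It rested on 371 to 598 counts per mouse, with Wilson intervals of up to 6.44 points, and HOMO replicate 3 alone lay above 10%. The log2 change of 1.12 ± 0.27 (limma adjusted p of 0.0196) was 0.82 without HOMO replicate 3 and no longer passed (limma adjusted p of 0.262), nor did it without HET replicate 2 or with the series term (1.27 ± 0.42, limma adjusted p of 0.247). With a quasi-binomial model the event did not pass either (adjusted p of 0.0502).

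The other 3 events belonged to genes of separate roles. Sars encodes seryl-tRNA synthetase, which loads serine onto its transfer RNA. Its 72-base exon (chromosome 3, 108230307 to 108231091 in the files) was excluded in 69.9, 67.2, 65.5 and 65.4% of reads in HET and 76.0, 75.6 and 78.5% in HOMO mice, with HET mice in the WT range of 65.2 to 71.9%. The log2 change was 0.70 ± 0.11 (limma adjusted p of 6.98e-05) and 0.60 ± 0.17 with the series term (limma adjusted p of 0.199). Rnf112 encodes a RING finger GTPase of neurons. Exclusion of its 69-base exon (chromosome 11, 61266415 to 61267120 in the files) was 15.3, 16.8, 18.6 and 16.3% in HET and 23.1, 24.0 and 24.9% in HOMO mice. WT mice had 18.1, 17.1 and 16.8% under 1000 and 13.1 and 13.1% over it. HET mice thus overlapped with the WT mice of their own series, and HOMO mice stood 1.07 ± 0.14 on the log2 scale above those of theirs, so the change of 0.65 ± 0.13 (limma adjusted p of 0.00275) became 1.13 ± 0.18 with the series term (limma adjusted p of 0.000244). Ahi1 encodes jouberin, a protein of cilia that binds the huntingtin-associated protein HAP1. Its 256-base, partly coding exon (chromosome 10, 20778056 to 20792348 in the files) was excluded in 33.0, 33.6, 32.3 and 37.2% of reads in HET, 45.8, 38.2 and 43.6% in HOMO and 25.8 to 30.5% in WT mice. Its log2 change was 0.52 ± 0.13 (limma adjusted p of 0.0297), and leaving out HET replicate 1, 2 or 3 or HOMO replicate 1 or 3 ended the call (limma adjusted p up to 0.206). The change with the series term was 0.67 ± 0.20 (limma adjusted p of 0.224).

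The 14 events did not share a position of the HET mice between WT and HOMO. Relative to WT, HET mice had moved in the direction of the HOMO mice in 8 of 14 (56.1% of all events were higher in HET than WT mice) and passed against WT in 3, Hnrpdl, Ybx1 and Ahi1, where 0.598% of all events did. Set against the 3 WT mice of their own series, under 1000, HET mice had moved in that direction in 9 of 14 (54.5% of all events), with Klc1 and Gria3 turning positive and Rnf112 negative, and passed in 1, Hnrpdl (0.218% of all events), while Ybx1 and Ahi1 did not (limma adjusted p of 0.123 and 0.310). Against all 5 WT mice the log2 changes in HET and HOMO mice were 0.78 and 1.78 for Hnrpdl, 0.50 and 1.09 for Ybx1, and 0.48 and 1.00 for Ahi1. For mKIAA1232, Klc1, Sars, Gria3 and Sytl2 the HET change ran between -0.17 and -0.05, with limma adjusted p-values of 0.624 to 0.895, while the HOMO change was 0.46 to 0.75. Diap1 also lay below WT in HET mice, by a log2 change of -0.40 ± 0.23 (limma adjusted p of 0.586), beside 0.72 in HOMO mice. HOMO mice passed against WT in 13 of the 14 (7.07% of all events passed, and 59.4% were higher in HOMO than WT mice), the exception being Diap1 (log2 change 0.72 ± 0.25, limma adjusted p of 0.0842). The 2 WT mice over 1000 lie near HOMO replicates 2 and 3 in number but not near replicate 1. Against these WT mice 10 of the 14 passed (4.46% of all events) and all 14 were higher (58.8%), whereas Klc1, Gria3, Sytl2 and Diap1 did not pass (limma adjusted p of 0.0563, 0.224, 0.0583 and 0.168). The events were chosen by the gap between HET and HOMO mice, and these comparisons share those mice, so the values are a description.

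**Figure D2:**
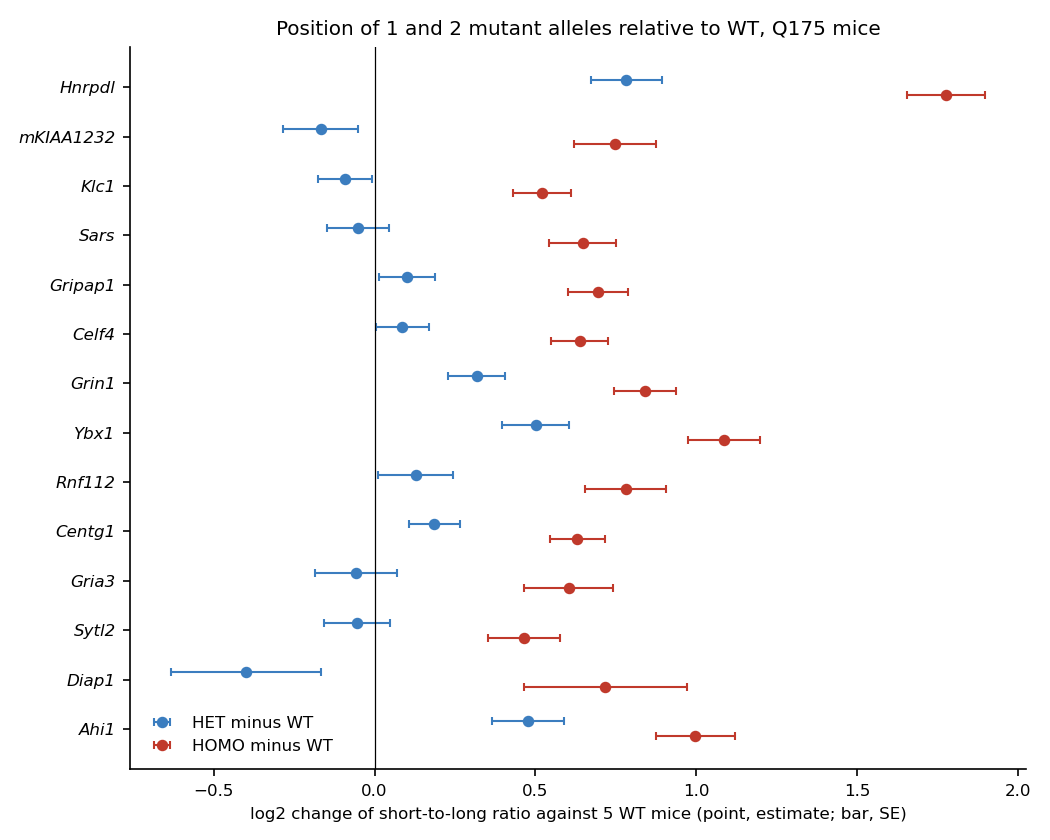
Change of the log2 short-to-long ratio against the 5 WT mice (horizontal axis; points are limma estimates, bars 1 SE) in HET and HOMO mice for the 14 events. Hnrpdl, Ybx1 and Ahi1 lie away from 0 in HET mice and further in HOMO mice, whereas the HET points of Klc1, Sars, Gria3 and Sytl2 lie between -0.09 and -0.05.

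Set against the difference between the WT series, the 14 events fell on both sides. The WT difference had the sign of the HOMO minus HET change in 6 of 14 (46.2% of all events were higher in the WT mice over 1000). It reached an unadjusted p under 0.05 in 4 (5.22% of all events), with the same sign in Klc1 and Gria3 and the opposite sign in Hnrpdl and Rnf112. The median size of the 14 changes was 0.60 without the series term and 0.61 with it. Only the 5 WT mice inform that term, so the part of the number series in any of these changes was measured with the wider errors given above.

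**Figure D3:**
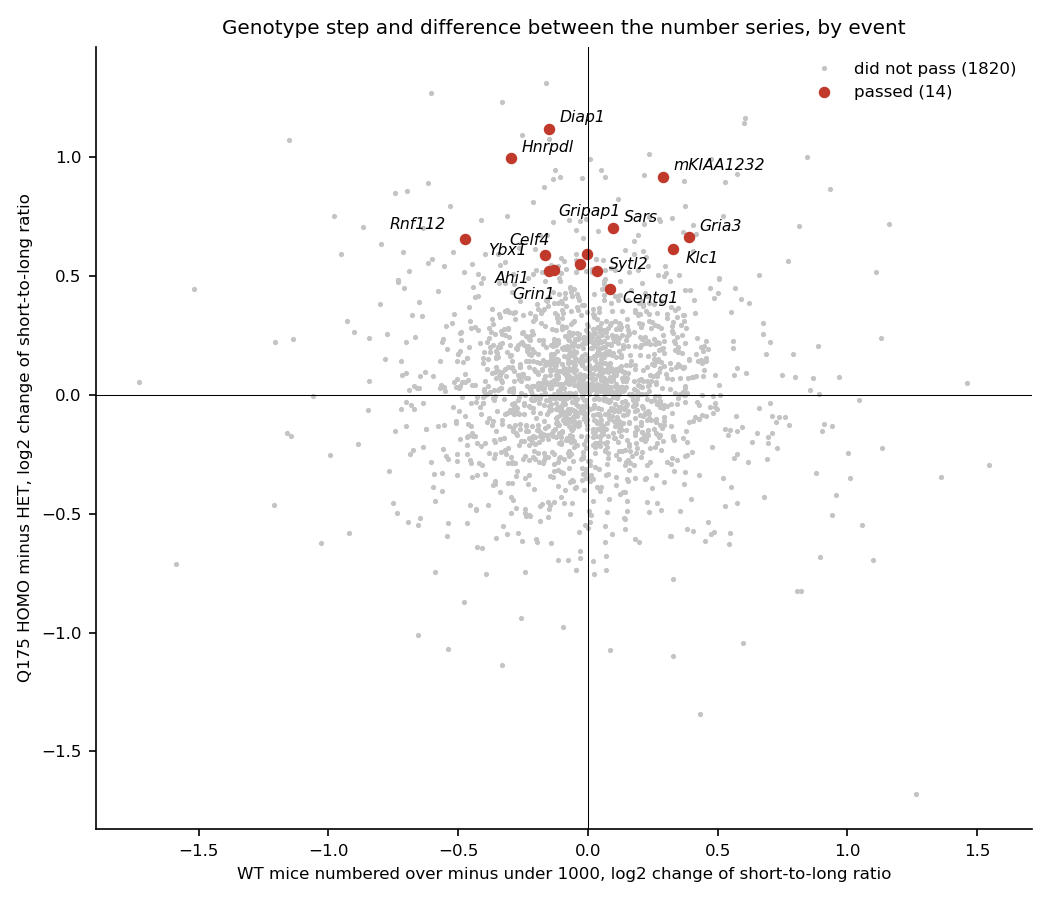
HOMO minus HET change (vertical axis) against the change between WT mice numbered over and under 1000 (horizontal axis), both as log2 of the short-to-long ratio, 1 point per event, with the 14 that passed in red. Gripap1, Celf4, Sytl2, Sars and Centg1 lie within 0.10 of 0 on the horizontal axis, Klc1, Gria3 and mKIAA1232 lie to the right of it, and Rnf112 and Hnrpdl lie to the left.

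The next 9 events described, in order of p, did not pass (limma adjusted p of 0.0880 to 0.128) and are given as values. They were Clec16a, Rbm34, Snhg11, Sltm, Kcnt1, Maz, Sfrs8 (now Sfswap), Ptprf and Ubp1, and 6 of the 9 had higher exclusion in HOMO mice. Rbm34 and Sfrs8 encode RNA-binding proteins, the latter a regulator of splicing. Their exclusion was 42.0% ± 2.94 and 75.5% ± 3.76 (SD, n = 4) in HET and 48.9% ± 1.28 and 81.3% ± 2.13 (SD, n = 3) in HOMO mice. Kcnt1, a sodium-activated potassium channel, had 34.9% ± 3.88 (SD, n = 4) and 42.1% ± 3.00 (SD, n = 3). Clec16a encodes a regulator of mitophagy, and its event was a choice between 5′ splice sites. Its short form was lower in HOMO mice, at 68.7% ± 0.663 (SD, n = 3) against 73.05% ± 1.08 (SD, n = 4). Exclusion was lower in HOMO mice in Maz and Ptprf too. Snhg11, Sltm and Ubp1 differed by 1.07, 1.02 and 2.66 points. All 9 kept their sign with the series term, but with it the log2 change went from 0.50 to 0.23 for Snhg11, from -0.50 to -0.20 for Maz and from 0.50 to 0.21 for Ubp1. Clec16a passed with a quasi-binomial model (adjusted p of 0.00104) and without HET replicate 1 (limma adjusted p of 0.0466), and Snhg11, Sltm, Kcnt1, Sfrs8 and Ubp1 each passed under 1 other setting (limma adjusted p of 0.0107 to 0.0431).

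For Mtap7d2, Mag and Mlx, which the study examined by RT-PCR, the HOMO and HET mice overlapped in each event and none passed. Mag, a myelin protein, had 22.8, 19.9, 17.7 and 15.3% in HET and 13.5, 18.2 and 18.8% in HOMO mice, all below WT mice at 26.1 to 29.9%, with a log2 change between HOMO and HET of -0.20 ± 0.13 (limma adjusted p of 0.575), which was -0.024 without HOMO replicate 1, -0.086 without HET replicate 1, -0.31 without HOMO replicate 3 and -0.32 without HET replicate 4. Mtap7d2 (now Map7d2), a protein that binds microtubules, had 2.30, 3.12, 2.45 and 3.01% in HET and 3.53, 2.78 and 3.19% in HOMO mice (log2 change 0.23 ± 0.16, limma adjusted p of 0.602, and 0.15 without HET or HOMO replicate 1). Mlx, a transcription factor of glucose sensing, had 15.2, 24.7, 26.98 and 19.3% in HET and 27.6, 26.8 and 25.6% in HOMO mice (log2 change 0.43 ± 0.25, limma adjusted p of 0.537, and 0.24 without HET replicate 1). Here the HOMO mice were close together and the HET mice were spread over the WT and HOMO ranges. With 210 to 334 counts per mouse the Wilson intervals of Mlx were up to 11.0 points wide.

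Over all events 0.816% passed, 0.761% upward. By function, the 95 events of splicing factors and other RNA-binding proteins held 2 that passed upward (Celf4 and Hnrpdl), with a median log2 change of 0.11 beside 0.035 over all events. Ion channels, receptors and transporters held 2 upward of 57 events (Gria3 and Grin1; median 0.082) and none downward. The cytoskeleton and motor list held 1 of 100 (Diap1; median 0.030), small GTPases and their regulators 1 of 64 (Centg1; median 0.027), synaptic adhesion and guidance 1 of 69 (mKIAA1232; median 0.027) and huntingtin and its partners 1 of 7 (Ahi1; median 0.24), all upward. Klc1, Sars, Gripap1, Ybx1, Rnf112 and Sytl2 were on none of the lists. Among 93 events of kinases and phosphatases and 98 of transcription and chromatin genes none passed (14 and 9 at an unadjusted p under 0.05 in limma, against 10.9% of all events), with medians of 0.008 and 0.022.

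Mean exclusion over all events gives 1 value per mouse. It was 44.7, 45.7, 45.0 and 45.4% in HET mice and 45.6, 45.4 and 45.8% in HOMO mice. One HOMO mouse lay above every HET mouse, and the groups overlapped. The HOMO mean of 45.6% ± 0.172 (SD, n = 3) lay 0.366 points above the HET mean of 45.2% ± 0.433 (SD, n = 4; two-sided exact permutation p = 0.286, in a design that cannot go below 0.0571). HET mice lay 0.206 points above the WT mice under 1000 and HOMO mice 0.742 points above those over it, which makes a step of 0.536 points between them with the series term. The median over events in place of the mean turned the sign, to -0.143 points (two-sided exact permutation p = 0.914), and the share of short counts among all counts of a mouse differed by 0.041 points (two-sided exact permutation p = 0.971).

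Event totals, short plus long as CPM, stand for the abundance of the transcripts that the probes reach. They passed in 9 of 1839 events (0.489%), 3 higher and 6 lower in HOMO mice, and none of the 9 was among the 14 splicing events. After centring on the median event of each mouse 16 passed, 4 higher and 12 lower, among them events of Rnf112 and Sytl2. Kcnip1, a calcium sensor of potassium channels, fell from 644 ± 14.8 (SD, n = 4) to 522 ± 12.7 (SD, n = 3) CPM, Camkk2, a kinase upstream of CaM kinases, from 961 ± 52.1 (SD, n = 4) to 719 ± 104 (SD, n = 3), and Arpp21, a phosphoprotein of neurons, from 120 ± 17.9 (SD, n = 4) to 81.4 ± 5.43 (SD, n = 3). Scube1, Sltm and D11Bwg0517e fell too. Pak3, a kinase of dendritic spines, rose from 298 (SD 31.1, n = 4) to 401 (SD 54.9, n = 3). None remained with the series term (154 at an unadjusted p under 0.05 in limma, 8.37%) or without HET replicate 1, 2, 3 or 4 or HOMO replicate 1 or 2, and 6 of the 9 passed without HOMO replicate 3. For the 14 splicing events the totals differed by between -0.35 and 0.22 on the log2 scale, and 6 had an unadjusted p under 0.05 in limma (14.8% of all events).

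The same step from HET to HOMO was measured in other mice, 4 Q150 HET and 4 Q150 HOMO mice with a shorter repeat, which were younger by the study's methods. All 14 events were listed there and all 14 moved in the same direction as in Q175 mice; of the 1731 events listed in both lines, 62.6% had higher exclusion in Q150 HOMO than HET mice. In Q150 mice 5 of the 14 passed, Hnrpdl, mKIAA1232, Sars, Gripap1 and Rnf112 (2.14% of the 1731), and 8 passed with the number series of those mice as a term (4.51%), with Grin1, Centg1 and Ahi1 added. Gripap1 rose from 15.9% (SD 0.985, n = 4) to 22.2% (SD 1.24, n = 4), a log2 change of 0.60 ± 0.11 in Q150 beside 0.59 ± 0.10 in Q175 mice. Rnf112 rose from 25.6% (SD 2.35, n = 4) to 37.6% (SD 5.17, n = 4), a log2 change of 0.81 ± 0.16 beside 0.65 ± 0.13. Ybx1 showed little of its Q175 step, with 14.3% ± 1.10 (SD, n = 4) and 15.02% ± 1.03 (SD, n = 4), a log2 change of 0.088 ± 0.11 (limma adjusted p of 0.765). The difference between the lines did not pass for any of the 1731 events (128 at an unadjusted p under 0.05 in limma, 7.39%), and 3 of the 14, Klc1, Ybx1 and Gria3, had an unadjusted p under 0.05 (0.0139, 0.00466 and 0.0196). The 14 were chosen by their step in Q175 mice, which is part of that difference, so these 3 values are a description. With the series term the Q175 step was 0.29 for Klc1 and 0.27 for Gria3, beside 0.19 and 0.17 in Q150 mice. For Ybx1 it was 0.75 beside 0.088. In the transgenic R6/2 line, where 3 HD mice with a fragment of mutant human huntingtin were compared with 3 WT mice, the 14 events again all moved in the same direction and 13 passed, Klc1 being the exception (of the 1696 events listed in both sets, 29.2% passed and 60.6% were higher in HD mice). The R6/2 WT mice are numbered 3 to 6 and the HD mice 860 to 869, so genotype and number series cannot be told apart there.

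**Figure D4:**
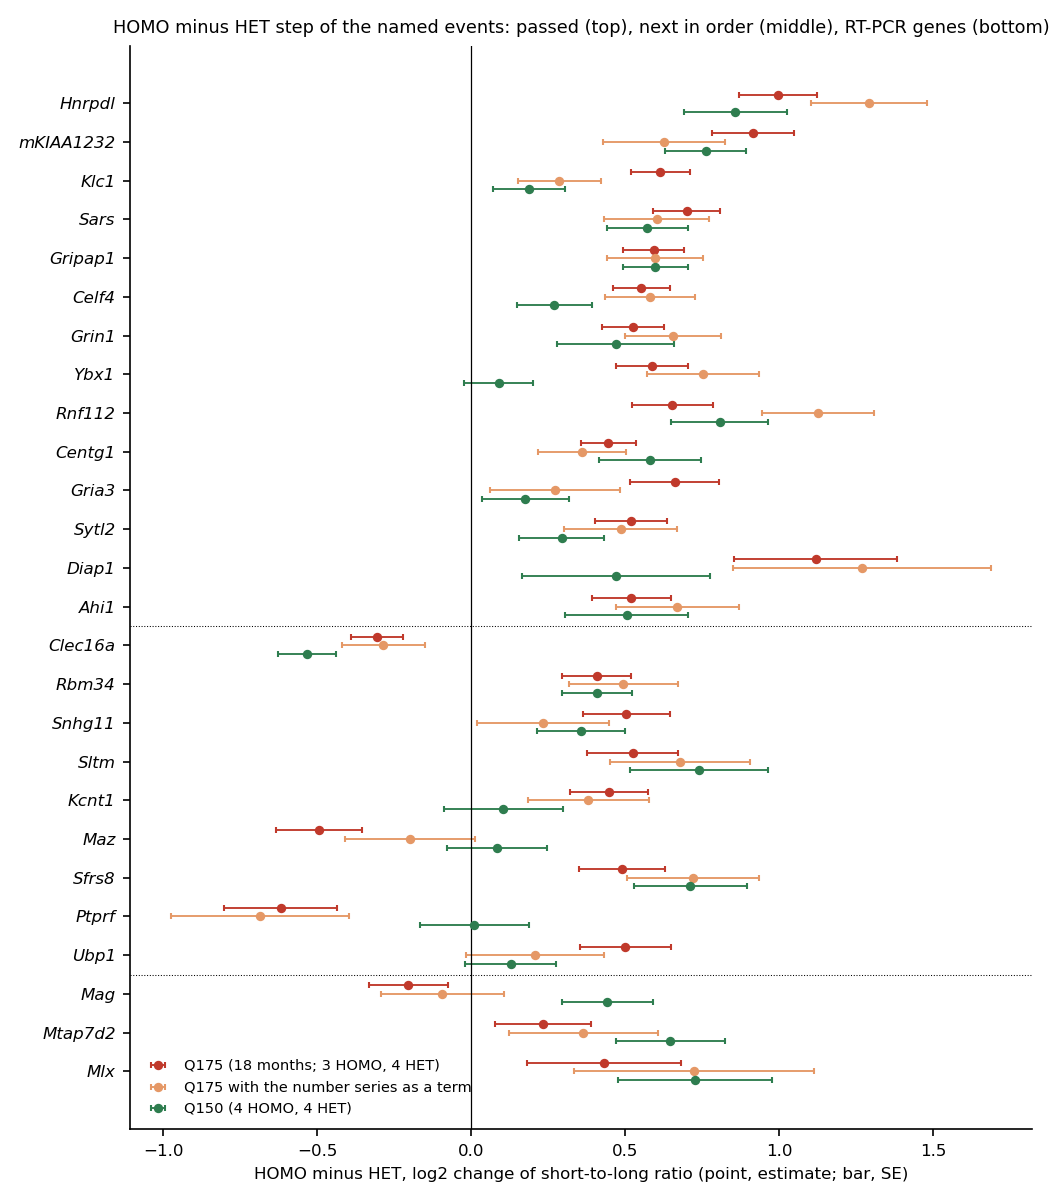
HOMO minus HET change of the log2 short-to-long ratio (horizontal axis; points are limma estimates, bars 1 SE) for the 26 named events in Q175 mice, in Q175 mice with the number series as a term, and in Q150 mice; dotted lines separate the 14 that passed, the next 9 and the 3 RT-PCR genes. Points of the 3 estimates nearly coincide for Gripap1, whereas Ybx1 and Klc1 lie nearer 0 in Q150 mice than in Q175 mice.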

How the data were processed

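The mice, groups and event lists were chosen with earlier results of these data known. Total RNA of cortex had been annealed to probe pairs by the authors, selected on oligo(dT), ligated, amplified and sequenced; the aligner is not given in the sources used here, and the submitters' processing notes name mm10, although the positions in the files fall outside the named genes in GRCm38 for most events (218 of 1538 fall inside). As deposited, the short and long values are junction counts (unit class other, for their comma separators, which were removed) and are not normalized. No molecular identifiers are stated, so intervals cover counting error only. The lowest deposited count was 4.

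Ratios were log2((short + 0.5)/(long + 0.5)). Group means over 12 mice were fitted with limma 3.58.1 (R 4.3.3), with a variance trend on the counts behind each ratio, and p-values were adjusted by Benjamini-Hochberg over 1839 events; 10 pairs of events hold identical counts and both members were kept. Named events were all that passed, the next by p up to 25, and those of Mtap7d2, Mag and Mlx. Some events are not reported here; they stayed in every fit and in counts over all events, and were left out of the gene lists. Nothing in the labels says how the mice were bred or housed together, so p-values measure only the spread between these samples. The fit was tested on simulated data with 200 changed events and the same spread between mice, 0.17 on the log2 scale, for all events. It recovered 36.4% of log2 changes of 0.5 and 82.4% of those of 1. Of changes of 1.5 and 2 it recovered 98%, and 3.32% of its calls were false. Alternatives were a fit without the trend, a quasi-binomial model, centring, other pseudocounts and count minimums, the series term, the 7 mice alone and leaving out each mouse. Exons came from GENCODE annotation of GRCm38 and sequences from its genome; exact permutation tests used SciPy 1.17.1, and Wilson intervals are at 95%.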

Additional observations from a re-analysis of the deposited data

Results flagged for a closer look

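In 3 of the 54 groups of values tested for a lone mouse far from the rest, 1 was found, where chance gives about 1 in 20; groups of 3, and so all HOMO mice, were not tested. Centg1 exclusion was 8.18% in HET replicate 4 against 7.41 to 7.52% in the other HET mice, still below every HOMO mouse. Snhg11 exclusion was 97.2% in HET replicate 4, inside the HOMO range. The mean exclusion of WT replicate 8 was 45.4%, against 44.8 to 44.9% in the other WT mice.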

How the results depend on the processing

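The 15 calls between HOMO and HET mice stayed at 15 after centring, with a pseudocount of 2 and over events with at least 50 counts, and 16 passed with the 7 mice alone, 14 with a log2 change of at least 0.5 and 18 (14 of them shared) with the quasi-binomial model. Without a variance trend 1 event passed, Hnrpdl, and with the series term 3. With a mouse left out the count ran from 12, without HOMO replicate 3, to 18, without HET replicate 1; without HOMO replicate 1, the mouse that stood apart, 12 of the 15 calls were kept, and Ahi1, Sytl2 and Ybx1 were lost. Over the alternatives other than the count minimums and the minimum change, the 14 described events gave 213 values on the same side of the threshold and 39 that no longer passed, the next 9 gave 155 on the same side and 7 that passed, and no sign turned; Centg1 was lost at the minimum change of 0.5. Event totals passed in 9 events, in 16 after centring, and in 0 without a variance trend, with the 7 mice alone and with the series term; the counts without 1 mouse ran from 0 to 8. The step in mean exclusion was -0.143 points as a median over events, 0.041 as a share of summed counts and 0.536 with the series term, and without 1 mouse it ran from 0.200 to 0.528. Counts of 0 between the WT series and between the lines stayed at 0. The cause of these changes was not tested, beyond the wider errors that the series term brings by construction. No paired analysis was possible because the replicate numbers were given in accession order and pair no mice. Among the named events depth limits Diap1 and Mlx most, with 598 and 334 counts in their deepest mouse. The counts behind Fn1, described below, are not given here.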

Other observations

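In 9 of 1839 events the WT, HET and HOMO mice formed a stair with no overlap between neighbouring genotypes, 7 rising (0.381%) and 2 falling (0.109%). Those that rose were Hnrpdl, Ybx1, Centg1 and Ahi1, described above, and Rbbp6, Acss2 and Sort1, while Ociad1 fell; the last 4 were chosen after their values were seen, and none of them passed between HOMO and HET mice (limma adjusted p of 0.181 to 0.368). Rbbp6, which encodes a ubiquitin ligase that takes part in the processing of messenger RNA ends, averaged an exclusion of 41.6% (SD 1.03, n = 5) in WT mice, 45.6% (SD 1.75, n = 4) in HET mice and 50.8% (SD 1.23, n = 3) in HOMO mice. Acss2, the enzyme that makes acetyl-CoA from acetate, had 77.3% ± 0.824 (SD, n = 5), 81.4% ± 1.60 (SD, n = 4) and 84.4% ± 1.04 (SD, n = 3). Sort1, the sorting receptor sortilin, had 93.3% ± 0.456 (SD, n = 5), 94.6% ± 0.475 (SD, n = 4) and 95.4% ± 0.157 (SD, n = 3). Ociad1, a mitochondrial protein, fell from 3.88% ± 0.181 (SD, n = 5) through 3.49% ± 0.182 (SD, n = 4) to 2.84% ± 0.285 (SD, n = 3).

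Fn1, the gene of fibronectin, passed only with the series term (log2 change 2.22 ± 0.51, limma adjusted p of 0.0494). Exclusion of its 273-base exon was 49.5, 35.2 and 41.3% in WT mice under 1000 and 30.7 and 19.0% in those over it, 12.3, 20.4, 17.4 and 8.33% in HET mice and 31.5, 24.8 and 21.4% in HOMO mice. HET mice thus lay below the WT mice of their own series, and HOMO mice overlapped with those of theirs. Without the series term the HOMO minus HET change was 1.07 ± 0.36 (limma adjusted p of 0.186).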
